A study of Mus musculus with 4 samples.

Results

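Adrenergic receptors and the cyclic AMP machinery they drive were followed through RNA immunoprecipitation sequencing of mouse brown adipose tissue, a method in which an antibody pulls a protein down and the RNA that comes with it is sequenced. The set held 10 genes of the 22481 gene symbols in the deposited tables, and all 10 were found there by symbol: the receptors Adrb1 and Adrb3, the G protein gene Gnas, the adenylyl cyclases Adcy3 and Adcy6, the protein kinase A subunits Prkaca and Prkar2b, the phosphodiesterases Pde3b and Pde4d, and the transcription factor Creb1. They were chosen by name, for their place in the pathway. In brown adipocytes, noradrenaline from sympathetic nerves binds beta-adrenergic receptors, which act through the stimulatory G protein to switch on adenylyl cyclases. The cyclic AMP they make releases the catalytic subunit of protein kinase A from its regulatory subunit, phosphodiesterases break cyclic AMP down, and the kinase phosphorylates lipolytic proteins and CREB. This chain starts heat production in the cold.

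The study asked which mRNAs bind FAM172A in brown fat of mice kept in the cold. It compared RNA recovered with an antibody against FAM172A, a protein known as a partner of Argonaute in RNA splicing (IP), with RNA recovered with control immunoglobulin (IgG), in 2 pairs of libraries. The pair called the deeper one here has columns named only IP and IgG, and the libraries titled WT-cold-BAT, labelled with a cold protocol, belong to it by elimination. In the WT4 pair the columns carry the titles of the BAT-WT4 libraries, for which the labels give no protocol. WT, in both titles, is not spelled out, and age, sex, strain and number of animals are not given in the sources used here, and nothing says that each pair was a separate animal. Any p-value here reflects only how these libraries vary, which may be technical. A value here is RNA that came down with an antibody or with immunoglobulin, not the level in the tissue, and in bulk tissue fewer cells of a type and less RNA per cell cannot be told apart.

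The deeper pair held 6633644 IP and 5587287 IgG fragments on genes, while WT4 had 1631874 in IP and 360379 in IgG. All 8 brown adipocyte markers, among them Ucp1 and Cidea, had fragments in each library, while Th and Dbh, the noradrenaline synthesis genes that mark sympathetic neurons, were at 0 in all 4. Levels are given as fragments and as scaled CPM, the deposited scaled count in parts per 1000000 of the mean scaled total of its pair. The tables were normalized separately, so a level set across the pairs carries that limit. Log2 ratios of IP over IgG were taken within a pair after adding 1 to scaled CPM. Over the 16217 genes with a mean of at least 1 scaled CPM, the median log2 ratio was -0.03 in the deeper pair and 1.17 in the WT4 pair. It was -0.09 and 0.35 among the 3925 genes with a mean of at least 50 scaled CPM, a level that all 10 genes reached.

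The RNA that the libraries sample is shown here by the first 60 coding bases of 6 of the 10 genes, from GENCODE vM21 on GRCm38, with the start codon in capitals. The first 4 are the genes at least 2-fold higher in the WT4 IP library, and the last 2 were higher in IP by a smaller step in both pairs.
Adrb1: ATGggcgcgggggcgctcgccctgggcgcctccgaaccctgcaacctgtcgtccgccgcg
Adrb3: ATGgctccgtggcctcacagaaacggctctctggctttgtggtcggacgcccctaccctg
Adcy6: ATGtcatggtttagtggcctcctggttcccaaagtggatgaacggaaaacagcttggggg
Creb1: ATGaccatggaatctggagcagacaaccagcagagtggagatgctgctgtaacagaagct
Pde3b: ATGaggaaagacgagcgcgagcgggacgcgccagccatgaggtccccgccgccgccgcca
Prkar2b: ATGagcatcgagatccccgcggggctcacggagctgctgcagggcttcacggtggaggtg

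Base composition varied among the 4 genes that stood high in the WT4 IP library. Over the whole principal transcript, G and C made up 58.8% of Adrb1, 55.3% of Adrb3 and 55.4% of Adcy6, but 39.9% of Creb1. The median was 50.1% over the 3910 genes of at least 50 scaled CPM with a matched transcript, with quartiles of 45.7% and 54.7%. Their transcripts measured, as annotated, 2952 bases for Adrb1, 2795 for Adrb3, 6038 for Adcy6 and 5009 for Creb1, where the median of the better covered genes was 4190. Pde3b and Prkar2b had a G and C share of 44.0% and 44.1%, with lengths of 6573 and 3378 bases. Adrb1 was represented by 1 exon and Adcy6 by 22.

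In the deeper pair none of the 10 genes was 2-fold higher in IP, against 13.3% of all genes tested and 4.74% of those with a mean of at least 50 scaled CPM. Creb1 alone was 2-fold lower, as were 26.9% of all genes and 12.3% of the better covered ones. In the WT4 pair 4 of the 10 were 2-fold higher in IP (Adrb1, Adrb3, Adcy6 and Creb1), against 51.6% of all genes and 30.5% of the better covered ones, and none was 2-fold lower, against 19.3% and 11.4%. None was 2-fold the same way in both pairs, a mark that 7.19% of all genes met in the higher and 5.25% in the lower direction (1.2% and 2.24% of the better covered ones). After each pair was centred on its own median over all genes tested, the WT4 count was 4 higher and 1 lower (Prkaca). Over all genes the split went to 6476 higher and 5992 lower, against 8369 and 3125 uncentred. Among the 3925 better covered genes, to which all 10 belong, it went to 512 higher and 1701 lower, against 1196 and 449. With TMM factors, or in FPKM, 6 of the 10 were 2-fold higher in WT4, where 54.4% and 46.4% of all genes were. Of the 3925 better covered genes, 1479 were with TMM factors and 1239 in FPKM. The median log2 ratio of the 10 was 0.02 in the deeper pair and 0.91 in the WT4 pair. A pair holds 1 library of each kind, so these counts carry no test.

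**Figure D1:**
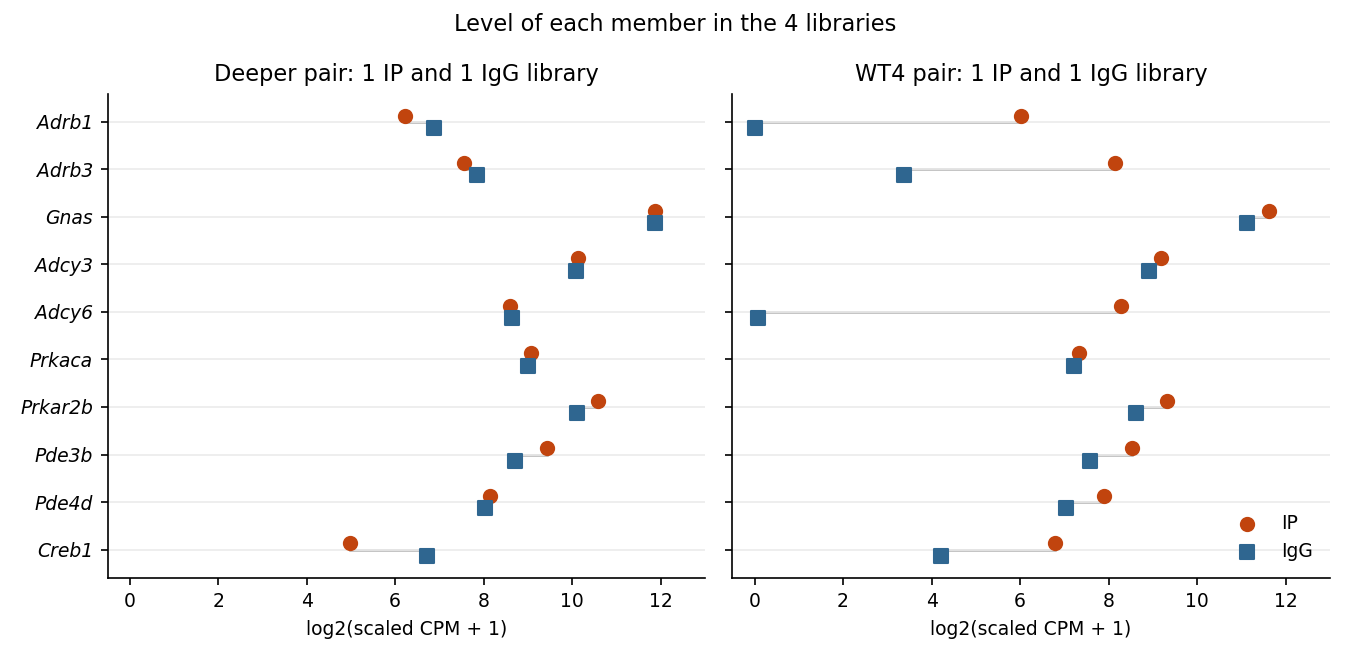
Level of each of the 10 genes as log2(scaled CPM + 1) on the horizontal axis, in the IP library (circle) and the IgG library (square) of each pair, with genes ordered by role. In the WT4 pair the IgG points of Adrb1 and Adcy6 lie at the zero end, while their IP points stand at 64.0 and 308 scaled CPM.

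Across both pairs, none of the 10 genes passed edgeR's quasi-likelihood test with the pair as a block and Benjamini-Hochberg adjustment over all genes, which called 1 of 16217 genes higher (0.00617%, or 0.0255% of the better covered ones, mt-Atp6) and 0 lower. The adjusted p was 1.0 for each of the 10. At an unadjusted p under 0.05 there were 2, Adcy6 and Adrb3, where 139 of all genes (0.857%, and 3.34% of the better covered ones) stood higher and 96 (0.592%, and 1.15%) lower. DESeq2 and limma called none of the 10, and at an unadjusted p under 0.05 none either.

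The receptors come first in the chain. Adrb1 (ENSMUSG00000035283, chromosome 19, 56722199 to 56733113, plus strand) encodes the beta-1 receptor, which in brown fat is known for its part in precursor growth. It gave 484 fragments in IP and 656 in IgG in the deeper pair, or 73.3 and 117 scaled CPM. The WT4 libraries held 95 in IP and 0 in IgG, or 64.0 and 0 scaled CPM. The other 3 libraries lie between 64.0 and 117 scaled CPM, and the WT4 IgG library stands apart at 0.

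At the scaled level of the WT4 IP library, the WT4 IgG library would have held 25.6 Adrb1 fragments. Adrb1 was 0.628 times its IgG level in the deeper IP library (95% counting interval 0.557 to 0.707). The WT4 IP library was 8.54-fold higher with IgG set to a floor of 3 fragments, and the lower 95% counting limit was 6.81. Such intervals and floors take in counting error alone, because without molecular identifiers PCR copies count as fragments. The log2 ratios were -0.66 and 6.02. With 0 fragments in IgG the WT4 value was set by the pseudocount, at 7.01 with 0.5 and 3.79 with 5, so no mean over the pairs is given. The edgeR log2 fold change of 1.78 had an unadjusted p of 0.226.

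Adrb3 (ENSMUSG00000031489, chromosome 8, 27225776 to 27250616, minus strand) encodes the beta-3 receptor, the main adrenergic trigger of lipolysis and thermogenesis in rodent adipocytes. Its fragments numbered 1238 in IP and 1296 in IgG in the deeper pair, then 417 and 4 in WT4. In scaled CPM these were 188 and 231, then 281 and 9.42. As with Adrb1, the WT4 IgG library was the one far from the other 3, where the WT4 IP level would have given 112 fragments.

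Within the deeper pair, IP stood at 0.813 times IgG (95% counting interval 0.751 to 0.880). WT4 IP was 28.1 times IgG, on 4 IgG fragments and with an interval of 10.9 to 104. The log2 ratios of -0.30 and 4.76 averaged 2.23 ± 3.57 (SD, n = 2 pairs), and edgeR gave a log2 fold change of 1.95, with unadjusted p = 0.0243 and adjusted p = 1.0. Both receptors were thus below IgG in the deeper IP library and above it in the WT4 IP library, beyond counting error each time. Over all genes tested, 21% had counting intervals on opposite sides of 1 in the 2 pairs, and 28.3% of those with a mean of at least 50 scaled CPM did.

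Gnas (ENSMUSG00000027523, chromosome 2, 174284320 to 174346744, plus strand) encodes the stimulatory G protein alpha subunit and was the most abundant of the 10 in all 4 libraries. The IP and IgG libraries held 24793 and 21107 of its fragments in the deeper pair, then 4671 and 896 in the WT4 pair. Scaled CPM was 3757 and 3758 in the deeper pair, a ratio of 0.9997 (95% counting interval 0.981 to 1.02). For WT4 it was 3147 and 2239, a ratio of 1.41 (1.31 to 1.51). The WT4 log2 ratio of 0.49 lay close to the median of 0.35 of the better covered genes and turned to -0.68 when the pair was centred on the median of all genes. The Gnas locus is imprinted and makes several transcripts from separate promoters, and the tables list 1 value for it and give it a locus shared with Gm20721 on the opposite strand, so its count is uncertain in that respect.

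The adenylyl cyclases, which make cyclic AMP, parted ways in the WT4 pair. Adcy3 (ENSMUSG00000020654, chromosome 12, 4133103 to 4213525, plus strand) counted 7364 fragments in IP and 6095 in IgG in the deeper pair, then 866 and 192 in WT4. The scaled CPM was 1116 and 1085, then 583 and 480, so that IP and IgG lay near each other both times. Its log2 ratios were 0.04 and 0.28 on counts, and the WT4 value became -0.89 when centred and -0.01 with libraries scaled by their total fragments.

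In FPKM, which divides by the length of the transcripts that reads are assigned to, Adcy3 stood at 544 in IP and 450 in IgG in the deeper pair and at 287 and 62.8 in the WT4 pair. The WT4 log2 ratio was therefore 2.17 in FPKM. One FPKM of Adcy3 stood for 2.21 estimated counts in the WT4 IP library but for 8.28 in the WT4 IgG library, while for Prkaca it stood for 4.56 and 4.47. Adcy3 shares its listed locus with Cenpo and Ptrhd1.

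Adcy6 (ENSMUSG00000022994, chromosome 15, 98589973 to 98610076, minus strand), a cyclase inhibited by calcium, had 2554 IP and 2224 IgG fragments in the deeper pair. Of WT4, the IP library had 457 fragments and the IgG library, after rounding, 0, where the table lists an estimated count of 0.0619. Scaled CPM was 387 and 396, then 308 and 0.0571, so that 3 libraries lay between 308 and 396 and the WT4 IgG library held almost none of it. The WT4 IP level would have given 123 fragments there.

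Adcy6 was 0.977 times IgG in the deeper IP library (95% counting interval 0.923 to 1.04). The WT4 IP library was 41.1-fold higher with IgG set to the floor of 3 fragments, and the lower 95% counting limit was 33.3. The log2 ratios were -0.03 and 8.19. The WT4 value was set by the pseudocount, at 9.11 with 0.5 and 5.95 with 5, so no mean over the pairs is given. Of the 10 genes it had the smallest unadjusted p, 0.00165, with an edgeR log2 fold change of 2.75 and an adjusted p of 1.0 (0.380 to 1.0 over the other fits). Without the WT4 IgG library, in a fit with no replicate block, that log2 fold change was -0.19, and those of Adrb1 and Adrb3 were -0.76 and 0.02.

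Zeros of this kind were seen mainly in the WT4 IgG library. Of 2621 genes with at least 50 scaled CPM in each of the other 3 libraries, 157 (5.99%) had 0 fragments there, Adrb1 and Adcy6 among them. For the other libraries the same count was 3 of 2212 genes in the deeper IP library, 1 of 1973 in the deeper IgG library and 0 of 1964 in the WT4 IP library. At 300 scaled CPM or more in the other 3 libraries, 2 of 265 genes had 0 fragments in the WT4 IgG library. These were Adcy6 and the fatty acid elongase gene Elovl6, named here after their values were seen.

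**Figure D2:**
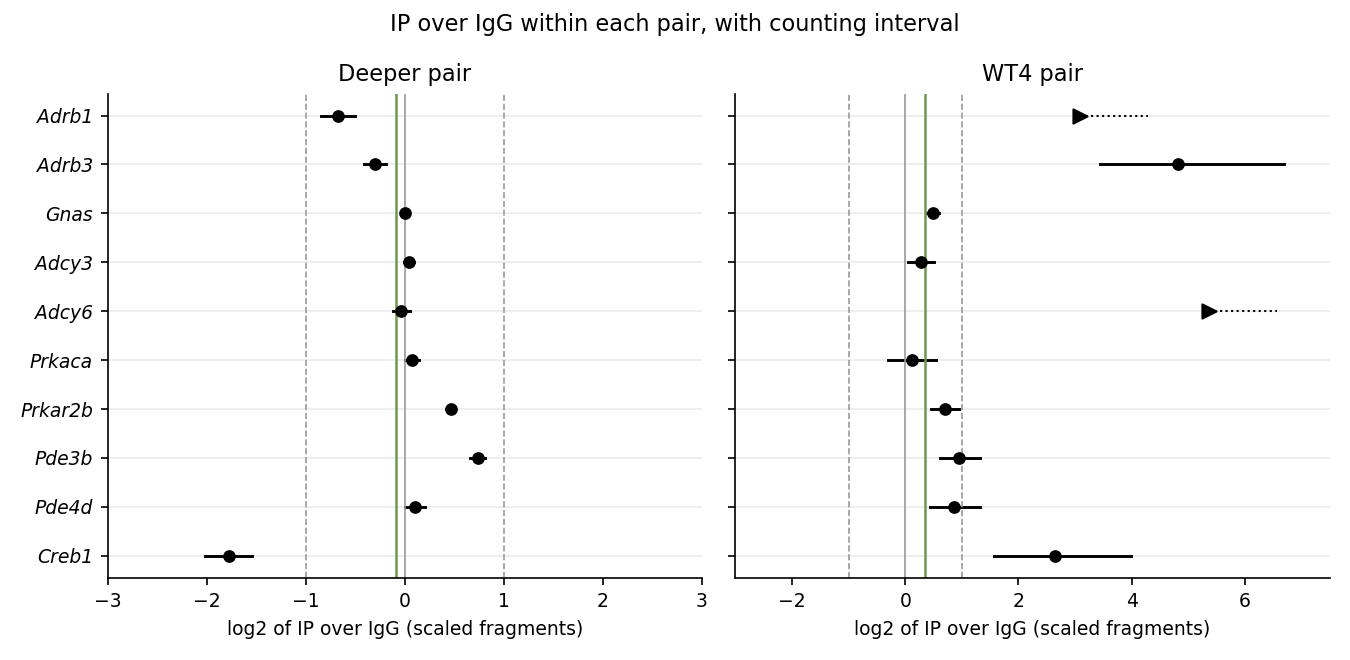
Log2 ratio of IP over IgG from scaled fragments in each pair (horizontal axis), where bars are 95% counting intervals. Triangles with dotted lines are ratios with IgG set to 3 fragments, which are not confidence limits. Dashed lines mark 2-fold and the green line the median of genes with a mean of at least 50 scaled CPM. Adrb1, Adrb3 and Creb1 lie left of 0 in the deeper pair and right of it in the WT4 pair, while Prkar2b and Pde3b lie right of 0 in both.

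Protein kinase A was followed through a catalytic and a regulatory subunit. Prkaca (ENSMUSG00000005469, chromosome 8, 83972993 to 83996443, plus strand), the catalytic alpha subunit, had 3528 IP and 2856 IgG fragments in the deeper pair and 237 and 59 in the WT4 pair. Its scaled CPM was 535 and 508, then 160 and 147, with IP and IgG close to each other in each pair. The ratio was 1.05 in the deeper pair (95% counting interval 1.0005 to 1.10) and 1.08 in the WT4 pair (0.811 to 1.47). Its log2 ratios of 0.07 and 0.11 averaged 0.09 ± 0.03 (SD, n = 2 pairs), the smallest spread among the 10 genes, and the WT4 value became -1.06 when centred.

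Prkar2b (ENSMUSG00000002997, chromosome 12, 31958476 to 32061296, minus strand), the type II beta regulatory subunit that predominates in adipose tissue, had 10052 IP and 6203 IgG fragments in the deeper pair. The WT4 libraries had 954 and 158. Scaled CPM was 1523 and 1104, then 643 and 395, higher in IP each time. The ratio was 1.38 in the deeper pair (95% counting interval 1.34 to 1.42) and 1.63 in the WT4 pair (1.37 to 1.94). The log2 ratios were 0.46 and 0.70, a mean of 0.58 ± 0.17 (SD, n = 2 pairs), with edgeR's unadjusted p = 0.281 and adjusted p = 1.0, and the WT4 value turned to -0.47 when centred.

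Among the phosphodiesterases, Pde3b (ENSMUSG00000030671, chromosome 7, 114415281 to 114539251, plus strand), the enzyme through which insulin lowers cyclic AMP in adipocytes, behaved much like Prkar2b. Its IP library held 4553 fragments and its IgG library 2328 in the deeper pair, against 547 and 76 for WT4. Scaled CPM was 690 and 414 in the deeper pair, against 368 and 190. The IP libraries were the higher ones in both pairs, by 1.66 times (95% counting interval 1.58 to 1.75) and 1.94 times (1.52 to 2.50).

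Its log2 ratios of 0.73 and 0.95 averaged 0.84 ± 0.15 (SD, n = 2 pairs), the highest mean of any of the 10 whose pairs did not fall on opposite sides of 0. The edgeR log2 fold change was 0.84 with unadjusted p = 0.139 and adjusted p = 1.0 (0.656 to 1.0 over the other fits). With Prkar2b and Pde4d, it was 1 of 3 genes of the 10 with counting intervals above 1 in both pairs, as were 10.4% of all genes and 16.5% of the better covered ones. For Pde4d the lower limit in the deeper pair was 1.0006, and it depended on the short row described below. In FPKM the ratios of Pde3b were 0.70 and 0.96 on the log2 scale, and centring turned its WT4 value to -0.22. Centred on the median of all genes tested, 1.17, the WT4 value was negative for Gnas, Adcy3, Prkaca, Prkar2b, Pde3b and Pde4d. It stayed positive for Adrb1, Adrb3, Adcy6 and Creb1. All 10 were among the better covered genes, whose WT4 median was 0.35. Uncentred, Pde3b (0.95), Pde4d (0.86), Prkar2b (0.70) and Gnas (0.49) lay above that median, and Adcy3 (0.28) and Prkaca (0.11) below it.

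Pde4d (chromosome 13, plus strand) belongs to the cyclic AMP specific phosphodiesterases. It was listed in 2 rows, which were summed: ENSMUSG00000021699, at 108449948 to 109953461, and ENSMUSG00000074661, a short row listed just downstream of it that had no match in GENCODE vM21. Their sum was 1853 IP and 1471 IgG fragments in the deeper pair and 352 and 52 in the WT4 pair. The ratio was 1.07 (95% counting interval 1.0006 to 1.15) and 1.82 (1.36 to 2.49), and the log2 ratios were 0.10 and 0.86.

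The 2 rows of Pde4d did not match each other in the deeper pair. The main row had 1406 IP and 1261 IgG fragments there, and 60.5 FPKM in IP against 74.1 in IgG. After scaling, its count was also lower in IP than in IgG. The limit of 1.0006 for the sum therefore rested on the short row. The short row had 447 IP and 210 IgG fragments, and 28.9 FPKM against 16.0. Both were higher in IP in WT4, with 322 and 50 fragments in the main row and 30 and 2 in the short one. The main row shares its listed locus with the ribosomal protein gene copy Rps3a3, so its count is uncertain.

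Creb1 (ENSMUSG00000025958, chromosome 1, 64532645 to 64604548, plus strand) encodes CREB, the transcription factor phosphorylated by protein kinase A. It counted 200 fragments in IP and 583 in IgG in the deeper pair, and 163 and 7 in WT4. Scaled CPM was 30.3 in IP and 104 in IgG in the deeper pair, against 110 and 17.5 in the WT4 pair. The deeper IgG and WT4 IP libraries were thus the high ones, and the deeper IP and WT4 IgG libraries the low ones.

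Creb1 was the only one of the 10 that was 2-fold apart in both pairs, and the directions were opposite. IP stood at 0.292 times IgG in the deeper pair (95% counting interval 0.247 to 0.343) and at 6.28 times IgG in the WT4 pair (2.98 to 15.9). Over all genes tested, 17.3% were 2-fold apart in opposite directions, and 3.8% of those with a mean of at least 50 scaled CPM. The log2 ratios were -1.74 and 2.58, averaging 0.42 ± 3.06 (SD, n = 2 pairs), and edgeR's unadjusted p was 0.809.

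**Figure D3:**
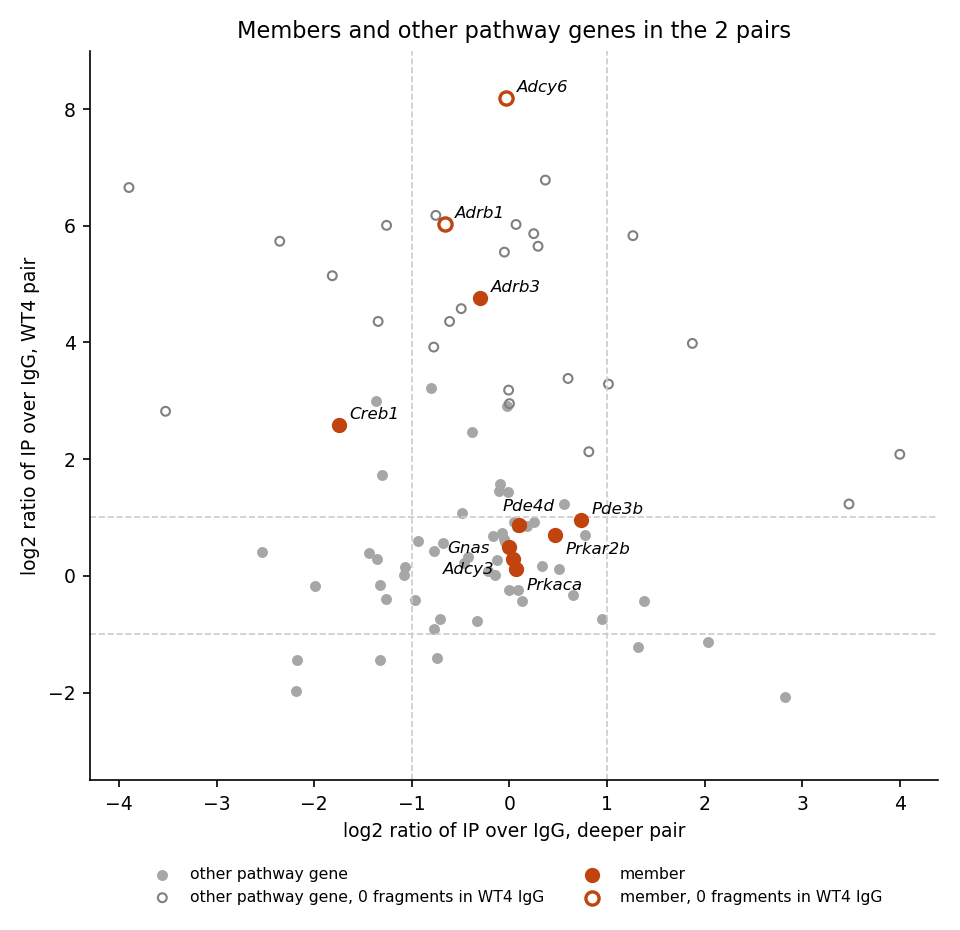
Log2 ratio of IP over IgG in the deeper pair (horizontal axis) and in the WT4 pair (vertical axis) for the 10 genes (red, labelled as members) and 79 other pathway genes (grey), with open symbols for genes at 0 fragments in the WT4 IgG library and dashed lines at 2-fold. Adcy6 is the highest point on the vertical axis at 8.19, and 6 of the 10 genes sit between the dashed lines on both axes.

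Levels between genes were compared per length, in FPKM. Gnas led in each library, at 1791 in IP and 1802 in IgG in the deeper pair and 1620 and 1341 in the WT4 pair. Adcy3 and Prkar2b took the next places, Adcy3 ahead in both libraries of the deeper pair and in the WT4 IP library, and Prkar2b ahead in the WT4 IgG library, where it had 103 FPKM and Adcy3 62.8. Where Adcy3 was ahead, the order rested on the transcripts that FPKM assigns reads to. Prkar2b had more fragments in those libraries, on a principal transcript of 3378 bases against 4672. In the deeper IP library an FPKM stood for 12.5 estimated counts of Adcy3 and 17.6 of Prkar2b. Prkaca followed in the deeper pair, at 181 FPKM in IP and 172 in IgG, but in the WT4 IP library it stood at 38.0, behind Pde4d at 58.9 and Adrb3 at 53.8.

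Of the receptors, Adrb3 was the more abundant per length in every library, with 64.4 FPKM in IP and 77.1 in IgG in the deeper pair, against 22.7 and 36.2 for Adrb1. For WT4, Adrb3 had 53.8 and 1.83 FPKM, and Adrb1 had 13.9 in IP and was listed at 0 in IgG. Adcy3 likewise exceeded Adcy6, which had 47.6 and 48.7 FPKM in the deeper pair and 26.2 and 0.00489 in the WT4 pair. Creb1 was the lowest of the 10 in 3 libraries, at 2.65 and 9.09 FPKM in the deeper pair and 6.64 in WT4 IP, but above Adrb1 and Adcy6 in the WT4 IgG library at 1.08. Below Gnas the ranges over the 4 libraries, from tables normalized separately, overlapped between neighbours. Adcy3 ranged from 62.8 to 544 FPKM, Prkar2b from 103 to 529 and Prkaca from 35.8 to 181. Pde4d ranged from 27.7 to 90.1 FPKM and Pde3b from 14.8 to 77.4.

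**Figure D4:**
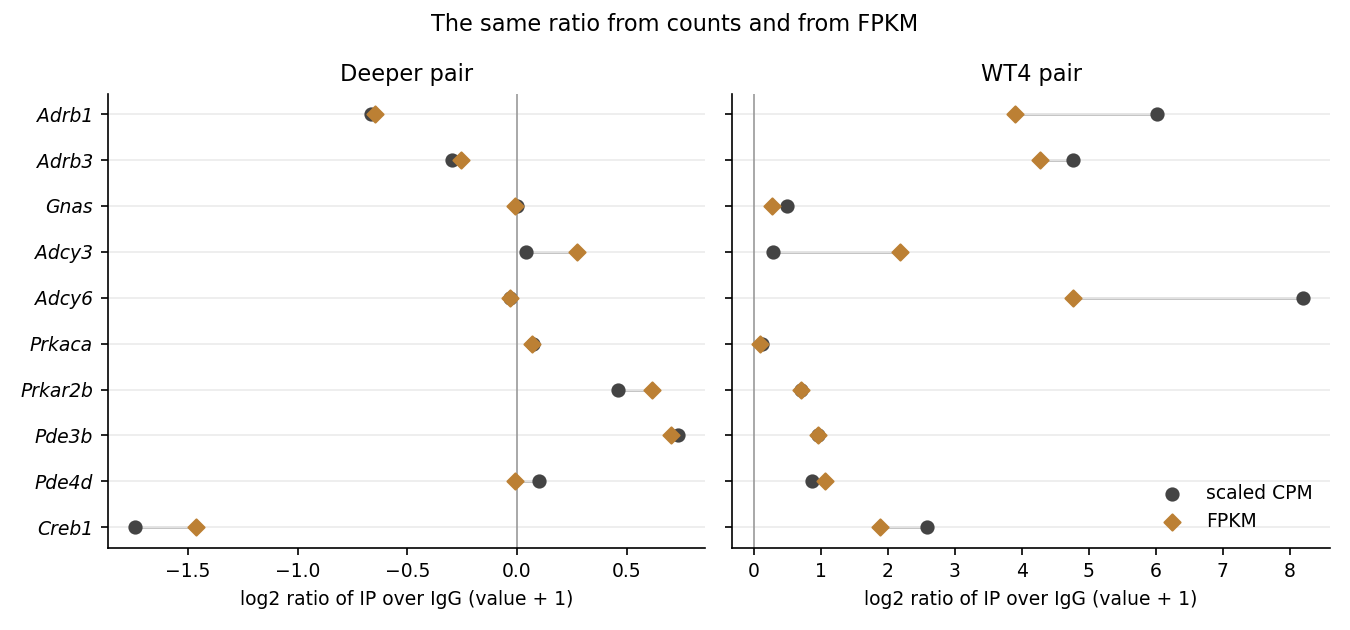
Log2 ratio of IP over IgG for each of the 10 genes from scaled CPM (circle) and from FPKM (diamond), each after adding 1, in the 2 pairs on separate horizontal scales. Adcy3 moves from 0.28 to 2.17 in the WT4 pair, Adcy6 from 8.19 to 4.76, and Prkaca hardly at all.

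The rest of the pathway was described with 79 further genes in 10 roles. In the deeper pair 9 of the 79 were 2-fold higher in IP and 19 lower, against 34 higher and 7 lower in the WT4 pair. The percentages of all genes past the same lines are those given above. Centring changed the WT4 split to 25 higher and 26 lower, and that of all 16217 genes tested to 6476 and 5992. The median log2 ratio of the 79 was -0.13 in the deeper pair and 0.70 in the WT4 pair, and 24 of them (30.4%) had 0 fragments in the WT4 IgG library, against 43% of all genes tested. None passed edgeR's test (smallest adjusted p = 1.0), 3 had an unadjusted p under 0.05 (Gnb1, Pde8a and Prkar2a), and DESeq2 and limma called none either, with 3 at an unadjusted p under 0.05 in DESeq2, 0 in limma on scaled CPM and 3 in limma on FPKM. Of all genes, 1.45% had such a p in edgeR, 3.31% in DESeq2, 1.36% in limma on scaled CPM and 3.81% in limma on FPKM.

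Of all genes tested, 7.19% passed the 2-fold line upward in both pairs and 5.25% downward. Of the 79, 5 passed it upward and 3 downward. Prkar2a, the type II alpha regulatory subunit and close relative of Prkar2b, was the best covered of these, with 995 IP and 349 IgG fragments in the deeper pair. WT4 gave 83 and 0, a ratio of 7.46 with IgG set to the floor of 3 fragments. Its log2 ratios were 1.27 and 5.83, with an edgeR unadjusted p of 0.0219 and an adjusted p of 1.0.

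The other 4 rested on fewer fragments. Arrb2, an arrestin that uncouples receptors, had 121 IP and 24 IgG fragments, then 22 and 0 (1.98-fold higher with IgG set to the floor of 3 fragments). Pkia, an inhibitor of the kinase, had 161 and 65, then 13 and 0 (1.17-fold higher on the same floor). Such ratios to the floor are not lower confidence limits, and that of Pkia lies near 1. Adra2c, an inhibitory adrenergic receptor, had 67 and 0, then 2 and 0, and the G protein beta subunit gene Gnb5 99 and 0, then 5 and 0. With the WT4 IgG library set to 3 fragments, neither has a ratio above 1 there. The genes lower in both were Pkig, a kinase inhibitor, with log2 ratios of -1.33 and -1.45, and the phosphodiesterases Pde1b (-2.18 and -1.44) and Pde8b (-2.19 and -1.98). In FPKM the WT4 ratio of Pkig was 0.45, on the other side of 0.

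The gene with the highest mean scaled CPM over the 4 libraries, which is not a level per length, was taken for each role. That mean can rest on 1 pair. By the mean of the deeper pair alone, Pde4a, Pde7b and Pde8a were ahead of Pde2a, Akap1 was ahead of Akap9, and Arrb1 was ahead of Adrbk1. Arrb1 stood at 20.9 in IP and 111 in IgG there, and Adrbk1 at 61.2 and 66.9. Pde2a stood at 44.1 in IP and 74.2 in IgG in the deeper pair, and at 158 and 422 in WT4. The alpha-1A receptor gene Adra1a had log2 ratios of 0.03 and 0.29, the receptor kinase gene Adrbk1 -0.13 and 0.27, and Adcy9 -0.96 and -0.42. The kinase subunit Prkar1a had 0.51 and 0.11, the anchoring protein Akap9 -0.05 and 0.58, and Sik2, a kinase that restrains CREB coactivators, 0.08 and 0.83. In FPKM the WT4 log2 ratio was 2.57 for Prkar1a, and it lay on the other side of 0 for Akap9 (-1.12) and Sik2 (-0.42). Gnb1 reached 2.92 in WT4, with 262 fragments in IP and 9 in IgG, after -0.03 in the deeper pair. Rapgef3, a cyclic AMP activated exchange factor, had -1.99 and -0.18, and Pde2a -0.74 and -1.42. Ucp1, the thermogenic target of the pathway, had 0.05 and 0.92.

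No marker of another cell type passed edgeR's test (smallest adjusted p = 1.0). Of 7 endothelial markers, 5 were 2-fold lower in IP in the deeper pair, where 26.9% of all genes were, and in WT4 4 were higher and 1 lower, beside 51.6% and 19.3% of all genes. Their summed level was 748 scaled CPM in IP and 1841 in IgG, then 2120 and 1447 in the WT4 pair. Adrb1, Adrb3 and Creb1 went the same way in each pair, and so did the summed smooth muscle and pericyte markers given below. Of the better covered genes, 28.3% had counting intervals on opposite sides of 1 in the pairs, in either order. Skeletal muscle markers summed to 4540 and 2891 scaled CPM in the deeper pair and to 1279 and 1412 in the WT4 pair. The 8 brown adipocyte markers summed to 12553 and 12019, then to 6520 and 3134. Macrophage markers summed to between 44.9 and 102 scaled CPM in the 4 libraries, with Adgre1 not listed, and the 5 detected neuron and Schwann cell markers to between 37.1 and 100. Smooth muscle and pericyte markers, of which Cnn1 was at 0 in all 4 libraries, summed to 579 and 889, then to 757 and 570. Of the white adipocyte markers Lep and Nnat were found, at 50.9 and 5.52, then 24.9 and 135. Their part in the ratios of the 10 genes was not tested.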

How the data were processed

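RNA immunoprecipitation sequencing gave 4 libraries, an IP and an IgG library in each of 2 tables. The labels' protocols state depletion of ribosomal RNA and directional libraries. The tools named, per the submitters' processing notes, were cutadapt 1.9.3, HISAT2, Cufflinks and Cuffdiff, with the build mm10. Each table was normalized separately by the authors. Each library's deposited estimated counts came in multiples of a fixed step (0.926, 1.09, 0.731 and 2.71 for the deeper IP, deeper IgG, WT4 IP and WT4 IgG libraries), and were divided by it and rounded. Between 94.5% and 97.8% of the values above 0 came within 0.05 of a whole number of fragments. FPKM was deposited by the authors in separate columns. Rows of 1 symbol were summed, and 25.9% of symbols shared a listed locus.

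The test across pairs was edgeR 4.0.16 (R 4.3.3) with the pair, known from titles and tables, as a block and library sizes from the authors' scaling. It had 1 residual degree of freedom, and its prior degrees of freedom were infinite: the spread was that of all genes, not a gene's own. DESeq2 1.42.0 and limma 3.58.1 were alternatives. For 2 against 2 libraries with the pairing ignored, the smallest two-sided p of an exact permutation test is 0.333. With labels exchanged only within pairs it is larger. Only the edgeR fit was run on simulated data, with the spread fitted to these data and with a low one. The outcome is not given here, and no result rests on it. Intervals are exact binomial. The 10 genes, the pathway list and the markers were chosen with earlier results of these data known. All 10 are reported, with the most abundant pathway gene of each role and those past 2-fold in 1 direction in both pairs. Coordinates are from GENCODE vM21 (GRCm38), matched by Ensembl identifier. The sequences come from the same release.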

Additional observations from a re-analysis of the deposited data

Results flagged for a closer look

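Adrb1, Adrb3 and Creb1 stood on opposite sides of IgG in the 2 pairs, each time beyond counting error. The log2 ratio of IP over IgG of Adrb1 was -0.66 in the deeper pair and 6.02 in the WT4 pair. The WT4 IgG library had 0 Adrb1 fragments. With IgG set to a floor of 3 fragments the WT4 ratio was 8.54, which is not a confidence limit. The lower counting limit of that ratio was 6.81. The log2 ratios of Adrb3 were -0.30 and 4.76, and those of Creb1 -1.74 and 2.58. With 1 IP and 1 IgG library in a pair, the difference between the pairs was not tested, and 28.3% of genes with a mean of at least 50 scaled CPM had counting intervals on opposite sides of 1.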

How the results depend on the processing

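Under every scaling, pseudocount and unit tried, none of the 10 genes passed 2-fold in 1 direction in both pairs, and no fit called any. With each pair centred on its median, 1 of the 10 was 2-fold lower in the WT4 pair, where 0 were. Of the 79 pathway genes, 5 were 2-fold higher in both pairs, against 2 with a pseudocount of 5, 3 when centred and 3 in FPKM. The 7 that were 2-fold lower in the WT4 pair became 11 with libraries scaled by total fragments and 26 when centred, and the 3 lower in both became 8 when centred. Over all 16217 genes tested, the 3125 lower in the WT4 pair became 3671 by total fragments and 5992 when centred. In the main setting, 7.19% of all genes were higher and 5.25% lower in both pairs. The same shares under the other settings are not given here. The changed counts of pathway genes in both pairs therefore cannot be set against all genes. The 1 gene called higher across all genes was lost (0 called) with limma on scaled CPM, with limma on FPKM and with no replicate block. In that fit without the pairing, leaving out 1 of the 4 libraries in turn gave 0 to 6 genes called higher and 0 to 5 lower. The log2 fold changes then ranged from -0.76 to 10.60 for Adrb1, from -0.12 to 0.62 for Gnas, from -0.43 to 0.82 for Adcy3, from -0.19 to 12.94 for Adcy6, from -1.04 to 1.24 for Prkaca, from -0.22 to 1.46 for Prkar2b, from -0.016 to 0.99 for Pde4d and from -1.02 to 1.99 for Creb1. Adrb3 (0.02 to 4.54) and Pde3b (0.28 to 1.48) kept their sign. The cause was not tested. With 0 fragments in WT4 IgG, the WT4 log2 ratios of Adrb1 (6.02) and Adcy6 (8.19) became 7.01 and 9.11 with a pseudocount of 0.5, 3.79 and 5.95 with 5, and 3.90 and 4.76 in FPKM. Where an arm was left with 1 library, that library was taken to vary like the rest. A ratio within a pair has no value without either library. Depth limits the WT4 IgG library most, where a gene at the Adrb1 level would give 25.6 fragments.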
